A study of Mus musculus with 2 samples.

Results

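The XCL1 and XCR1 axis was followed through Xcl1, the ligand, Xcr1, its receptor, and Flt3, a receptor used as a reference for dendritic cells. These 3 genes were taken by symbol from the 32285 genes of the count matrices, with no use of their values. Each was found once in the files, as ENSMUSG00000026573 (Xcl1), ENSMUSG00000060509 (Xcr1) and ENSMUSG00000042817 (Flt3).

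XCL1, also called lymphotactin, is a chemokine that NK cells and activated CD8 T cells secrete. XCR1 is its receptor, which among immune cells is carried by the type 1 conventional dendritic cell (cDC1), the cell that takes up dead cells and presents their antigens to CD8 T cells. FLT3 is the receptor for FLT3 ligand, the growth factor on which dendritic cells depend for their development.

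The cells were taken from the islets of NOD mice, in which autoimmune diabetes develops as lymphocytes enter the islets and destroy the insulin-producing beta cells. One library was from WT NOD mice and the other from NOD.Cxcl16-/- mice, on the same NOD background and lacking Cxcl16, which encodes the chemokine that binds CXCR6. All mice were female and 12 weeks old. The pancreas was digested with collagenase, islets were picked by hand and dispersed without enzyme, and live CD45+CD31- cells (blood-derived cells without endothelial cells) were sorted for 3' single-cell RNA-seq. The labels give neither the number of animals pooled in a library nor the part of Cxcl16 that is missing, and each genotype has 1 library, so differences between genotypes are given without a test.

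After filtering, 10723 cells with 56520298 unique molecular identifiers (UMIs, counted transcripts) remained in the WT NOD library and 9324 cells with 75789895 UMIs in the library labelled NOD.Cxcl16-/-, at medians of 3878 and 4906 UMIs per cell. The libraries shared 33 cell barcodes among kept cells. Cxcl16 transcript was counted in both libraries, at 62.4 counts per 1000000 UMIs (CPM, 95% interval 60.4 to 64.5) in WT NOD and 96.8 CPM (94.6 to 99.0) in the other library, and in macrophage-like cells at 808 and 494 CPM. The 3' reads may lie outside the deleted part, so these counts do not check the label, and that library is named by its label throughout. A set of low-UMI clusters held 26.9% of WT NOD cells and 4.42% of the other library, and clusters with genes of more than 1 lineage held 1.59% and 5.16%. Each result that these barcodes touch is given with their values.

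The promoters are shown because the 3 genes had separate patterns over cell classes. Xcl1 lies on chromosome 1 (164931644 to 164935527, 3 exons), Xcr1 on chromosome 9 (123852315 to 123862029, 2 exons) and Flt3 on chromosome 5 (147330741 to 147400489, 24 exons), all on the minus strand of GRCm38 (mm10). The 240 bases that end 11 bases before each RefSeq transcript start were read from RefSeq GRCm38.p6 at chr1:164935533-164935772, chr9:123862040-123862279 and chr5:147400500-147400739 and are given 5' to 3' on the gene's strand, with motif matches on either strand in capitals.
Xcl1: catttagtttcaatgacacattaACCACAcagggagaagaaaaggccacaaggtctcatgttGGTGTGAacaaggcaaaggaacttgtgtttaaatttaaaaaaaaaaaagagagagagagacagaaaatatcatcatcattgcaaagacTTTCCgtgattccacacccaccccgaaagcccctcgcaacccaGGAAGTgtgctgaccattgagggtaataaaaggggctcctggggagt
Xcr1: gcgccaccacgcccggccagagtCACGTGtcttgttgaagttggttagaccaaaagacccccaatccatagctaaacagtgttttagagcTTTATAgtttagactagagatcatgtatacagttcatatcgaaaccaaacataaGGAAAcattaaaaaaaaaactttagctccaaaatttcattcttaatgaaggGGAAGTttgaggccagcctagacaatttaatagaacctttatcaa
Flt3: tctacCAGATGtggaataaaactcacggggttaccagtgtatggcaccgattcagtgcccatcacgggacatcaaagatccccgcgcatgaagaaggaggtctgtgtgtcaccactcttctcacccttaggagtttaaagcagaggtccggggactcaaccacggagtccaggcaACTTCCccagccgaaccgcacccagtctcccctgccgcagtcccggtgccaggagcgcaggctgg

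An ETS core (GGAAGT) was present in all 3 promoters, starting 57, 55 and 75 bases before the start of Xcl1, Xcr1 and Flt3, and in 18.7% of 32851 mouse promoters of the same length. The Xcl1 promoter also held a T-box core (GGTGTGA, 3.22% of promoters), a RUNX core (TGTGGT, 13.6%) and an NFAT core (GGAAA, 54.1%), at 188, 227 and 100 bases before the start. The Xcr1 promoter held an NFAT core, an E-box (CANNTG, 65.0% of promoters) and the TATA box letters TATAAA (12.1%), at 106, 227 and 160 bases before the start. The TATAAA match was on the opposite strand, read as TTTATA on the gene's strand. The Flt3 promoter held an E-box. No promoter of the 3 held the AP-1 letters TGANTCA (6.58% of promoters), an interferon response element (2.87%, searched by its core with a gap) or the PU.1 letters GAGGAAGT (2.29%), which contain the ETS core. These matches are a description of the letters in the window and do not mark a site in use.

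Xcl1 was read first in NK-like cells. These were 107 WT NOD cells and 96 cells of the other library in which all 10 NK markers were detected, among them Ncr1, an activating receptor of NK cells, in 86.9% and 92.7% of cells. Xcl1 stood at 1857 CPM (95% interval 1742 to 1977, 980 UMIs) in WT NOD and 2397 CPM (2262 to 2538, 1173 UMIs) in the other library. The intervals, which here and below cover counting error only, did not overlap, and the log2 ratio of that library over WT NOD was 0.37 (0.24 to 0.49). Nearly every cell carried the transcript, with at least 1 Xcl1 UMI in 88.8% and 96.9% of NK-like cells, and in 81.8% and 93.3% once each cell was thinned to 2000 UMIs. The median NK-like cell stood at 1101 CPM in WT NOD and 1812 CPM in the other library, and the 10% of cells with the most Xcl1 held 39.5% and 35.1% of the class's Xcl1 UMIs.

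A neighbouring group of 246 and 212 cells carried both NK and T-cell genes and was left without a cell type name. Its leading genes included receptors of the Klra family, Cd3e (a T-cell receptor complex subunit) was seen in 78.0% and 79.7% of its cells, Trdc (the delta chain constant region) in 54.5% and 54.2%, and Ncr1 in 55.3% and 53.3%. Xcl1 stood there at 1968 CPM (1893 to 2044) in WT NOD and 1782 CPM (1709 to 1858) in the other library, and had a log2 ratio of -0.14 (-0.23 to -0.06). In WT NOD the NK-like level and that of the Klra Cd3e cells had overlapping intervals. In the library labelled NOD.Cxcl16-/- the NK-like level was above it. Counted together with the NK-like cells, the log2 ratio of the NK-like class was 0.014, so the size of the NK difference rests on where that border was drawn.

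CD8 T-like cells were far more numerous, at 1943 and 1498 cells (18.1% and 16.1% of the libraries). Xcl1 stood at 498 CPM (487 to 509, 7687 UMIs) in WT NOD and 815 CPM (800 to 831, 10287 UMIs) in the other library. Their log2 ratio was 0.71 (0.67 to 0.75). At least 1 UMI was seen in 34.2% (32.1% to 36.3%) of WT NOD cells and 40.8% (38.3% to 43.3%) of cells of the other library, at similar median depths of 5428 and 5665 UMIs. After thinning to 2000 UMIs the shares were 23.2% and 30.3%. B-like cells, which are not known to make XCL1, had a UMI in 1.45% and 1.81% of cells, at median depths of 4565 and 4589 UMIs, and in 0.674% and 0.557% after thinning.

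Unlike in NK-like cells, the CD8 transcript sat in few cells. The median CD8 T-like cell had none, while single cells reached 290 UMIs in WT NOD and 246 in the other library. Cells with 10 or more Xcl1 UMIs made up 9.01% and 14.4% of the class and held 80.5% and 87.2% of its Xcl1. The 10% of cells with the most Xcl1 held 82.8% and 79.4%, over 2 times the share that the top 10% held among NK-like cells.

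**Figure D1:**
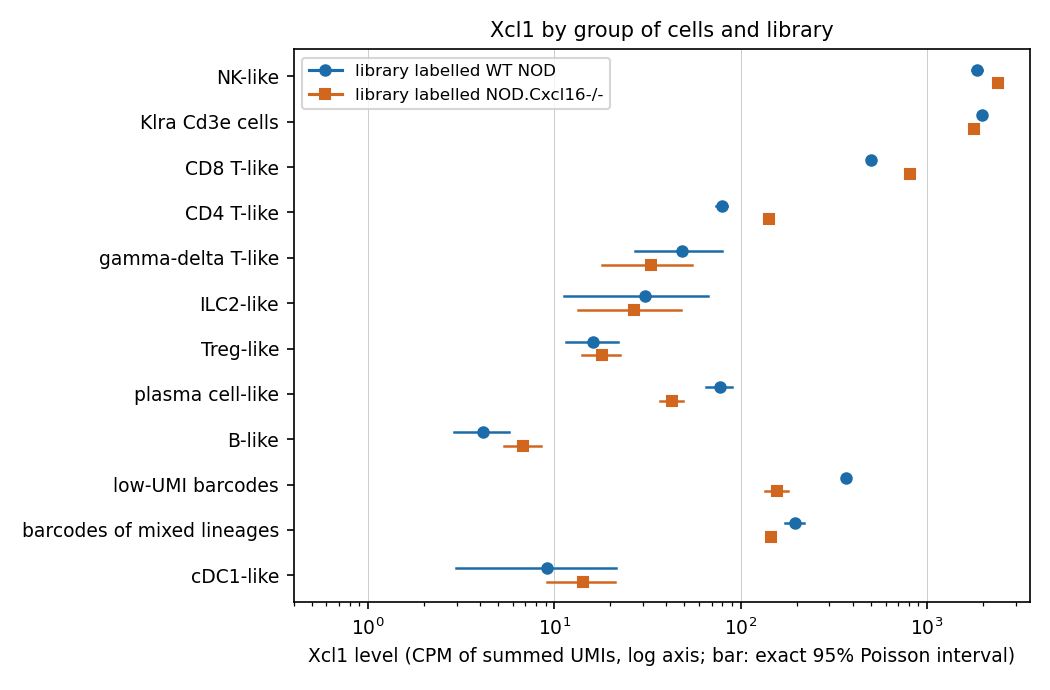
Xcl1 level in each group of cells, in CPM of summed UMIs on a log axis, with 1 point per library and exact Poisson 95% intervals as bars. NK-like cells and Klra Cd3e cells sit near 2000 CPM, CD8 T-like cells at 498 and 815 CPM, and B-like cells below 10 CPM.

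The remaining lymphoid classes were lower. CD4 T-like cells stood at 79.1 CPM (73.7 to 84.8) in WT NOD and 142 CPM (135 to 148) in the other library, and the log2 ratio was 0.83 (0.72 to 0.96). Gamma-delta T-like cells stood at 48.4 CPM (27.1 to 79.9) and 32.9 CPM (18.0 to 55.2), and ILC2-like cells at 30.6 CPM (11.2 to 66.7) and 26.9 CPM (13.4 to 48.1). The highest cell held 14 of 15 and 7 of 14 gamma-delta UMIs, and 5 of 6 and 10 of 11 ILC2 UMIs. Without that cell, gamma-delta T-like cells stood at 3.34 and 16.6 CPM and ILC2-like cells at 5.35 and 2.52 CPM. A group of cells led by Il21 and Il10, left without a cell type name, stood at 27.6 CPM (20.4 to 36.5) in 432 WT NOD cells and 11.8 CPM (6.72 to 19.1) in 278 cells of the other library. Treg-like cells stood at 16.2 CPM (11.6 to 22.1) and 18.0 CPM (14.1 to 22.6), and B-like cells at 4.13 CPM (2.89 to 5.72) and 6.80 CPM (5.35 to 8.53). The order was therefore NK-like, CD8 T-like and CD4 T-like in both libraries, with no overlap of intervals between these classes within a library. Gamma-delta T-like and ILC2-like cells did not differ beyond their intervals in either library.

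Within the CD4 T-like class Xcl1 was uneven as well. A cluster led by Il4, a type 2 cytokine, and Zbtb16, the transcription factor PLZF of innate-like T cells, held only 32 and 31 cells and stood at 648 CPM (526 to 790) and 753 CPM (631 to 891). A larger cluster led by Tnfsf8 and Tnfsf11, which encode CD30 ligand and RANK ligand, stood at 122 CPM (112 to 132) and 229 CPM (218 to 241) and held 75.9% and 86.9% of the class's Xcl1. That cluster had 8 cells with 10 or more Xcl1 UMIs among 608 in WT NOD and 43 among 771 in the other library. Clusters led by Igfbp4 and, in most of them, Lef1, a factor of naive T cells, ranged from 0 to 29.5 CPM. The CD4 difference between libraries thus lay for the most part in 1 cluster and in few cells.

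Some cells outside these classes also carried Xcl1, with depth beside them. Plasma cell-like barcodes stood at 77.2 CPM (65.4 to 90.5) and 42.8 CPM (37.1 to 49.1), but 4 and 5 cells held 77.6% and 84.2% of those UMIs, and the median depth was 3884 and 20943 UMIs. The low-UMI barcodes stood at 366 CPM (351 to 381) and 156 CPM (136 to 179), at median depths of 1426 and 1523 UMIs. The part of RNA from other cells in these levels was not tested. Among cDC1-like cells 5 and 24 Xcl1 UMIs were found, 19 of the 24 in a single cell.

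As shares of all Xcl1 UMIs, CD8 T-like cells held 51.4% (50.6% to 52.2%) of 14954 UMIs in WT NOD and 58.3% (57.5% to 59.0%) of 17654 in the other library. Klra Cd3e cells held 17.6% and 12.5%, NK-like cells 6.55% and 6.64%, and CD4 T-like cells 5.26% and 10.0%. The low-UMI barcodes held 14.8% of the WT NOD transcript (2208 UMIs), against 212 UMIs in the other library. With those barcodes left out, the CD8 share was 60.3% in WT NOD and 59.0% in the other library, so the order of the libraries turned. The NK-like cells had the highest level of the named classes, yet the CD8 T-like cells were the largest store of the transcript in both libraries. Over all kept cells Xcl1 stood at 265 CPM (260.4 to 269) and 233 CPM (229 to 236), so the total ran opposite to the CD8, CD4 and NK-like levels.

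**Figure D2:**
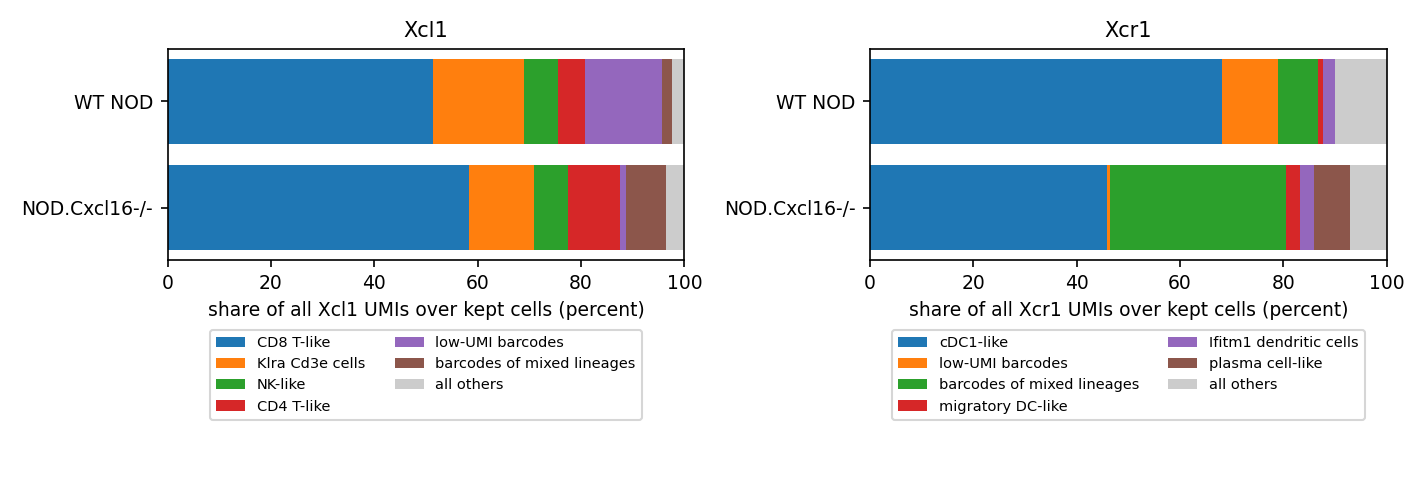
Share of all UMIs of Xcl1 and of Xcr1 held by each group of cells, in percent, by library. CD8 T-like cells hold 51.4% and 58.3% of Xcl1, and cDC1-like cells 68.0% and 45.8% of Xcr1.

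To place Xcl1 among CD8 states, the CD8 T-like cells were clustered again, which gave 6 subsets. Xcl1 was left out of the genes used for this clustering. The subsets and their levels come from the same cells, so the levels below describe the subsets and test nothing. The highest level was in a subset of 224 and 189 cells led by Cxcl10, Batf3 and Tnfsf11, at 1572 CPM (1524 to 1621) in WT NOD and 2289 CPM (2229 to 2350) in the other library. It was 11.5% and 12.6% of the CD8 T-like cells and held 53.5% (52.3% to 54.6%) and 53.8% (52.8% to 54.7%) of their Xcl1. At least 1 Xcl1 UMI was seen in 78.1% and 87.3% of its cells, and in 60.8% and 77.0% after thinning. Its level was below that of NK-like cells in WT NOD, and in the other library their intervals overlapped.

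The next subset, led by Tbc1d4, Ppp2r3a and Aff3 and with stem-like genes as its top state score, had 757 CPM and 1114 CPM in 235 and 267 cells. A subset led by 1500009L16Rik and by Rrm2 and Ube2c, genes of the cell cycle, had 302 CPM and 477 CPM. The listed cycling genes were the top state score both there (1.73) and, at a lower score (0.25), in the Cxcl10 Batf3 subset. Mki67, a gene of dividing cells, stood at 181 and 184 CPM in the former and 143 and 160 CPM in the latter, so its transcript was found at high and at lower Xcl1. The subset led by Havcr2 (TIM-3, an inhibitory receptor) and Entpd1 (CD39), both known from exhausted T cells, had 244 CPM (228 to 261) and 385 CPM (363 to 409). A memory-like subset led by Il7r, Gzmm and Hopx had 109.9 CPM (94.8 to 127) and 138 CPM (120 to 159), with overlapping intervals. The naive-like subset, led by Dapl1, had 51.9 CPM (42.5 to 62.8) and 30.4 CPM (21.9 to 41.0). Xcl1 therefore ran in the same order of subsets in both libraries. By point values it was higher in the library labelled NOD.Cxcl16-/- in 5 of 6 subsets and lower in the naive-like one. The memory-like direction depended on the clustering. At resolution 1, a memory-like subset led by Il7r had 107 and 154 CPM, and another led by Gzmm had 152 and 107 CPM.

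The subset with the most Xcl1 was not the one with the most of the other effector products. Gzmb, the cytotoxic protease granzyme B, stood at 12.6 and 12.0 CPM in the Cxcl10 Batf3 subset against 239.95 and 221 CPM in the Havcr2 Entpd1 subset. Ccl4, a chemokine of activated lymphocytes, stood at 186 and 199.9 CPM against 1068 and 499 CPM. Ifng stood at 121 and 92.7 CPM against 275 and 189 CPM. Tnfrsf9 (4-1BB, induced on T-cell activation) stood at 211 and 254 CPM in the Cxcl10 Batf3 subset.

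**Figure D3:**
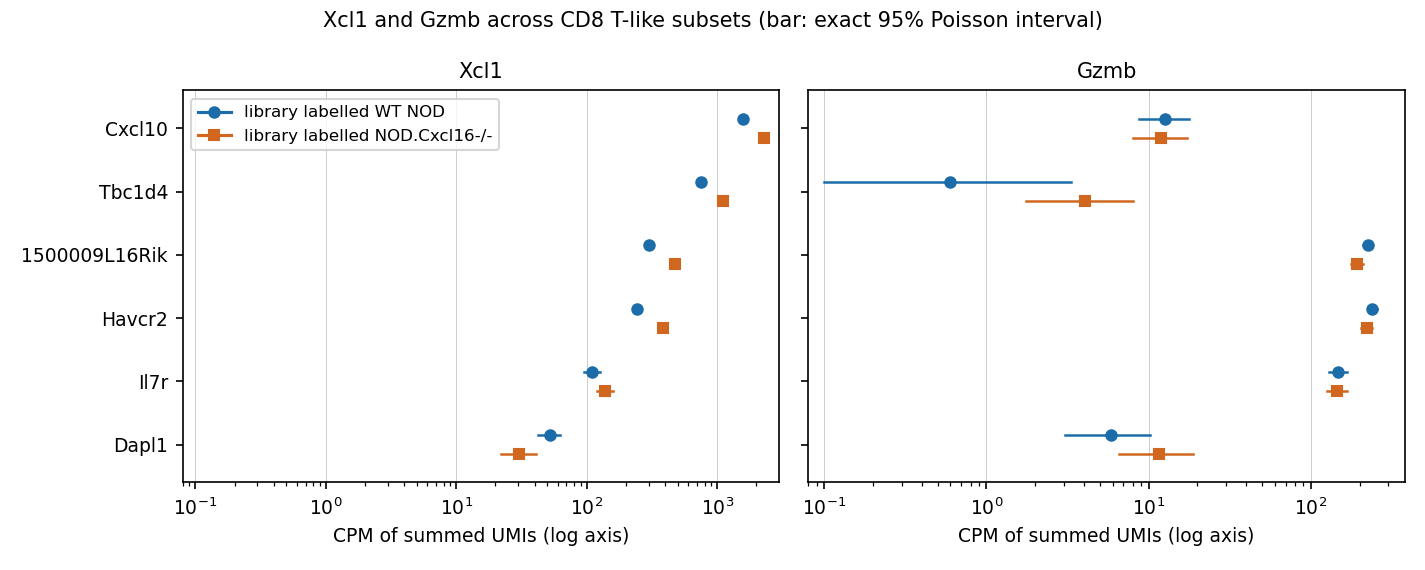
Xcl1 and Gzmb levels in the 6 CD8 T-like subsets, each named by its leading gene, in CPM on a log axis, with exact Poisson 95% intervals, by library. Xcl1 is highest in the Cxcl10 Batf3 subset (1572 and 2289 CPM), where Gzmb is near 12 CPM.

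Xcl1 was also compared between CD8 T-like cells with and without a UMI of single markers. Cells with a UMI of Egr2, a factor induced by T-cell receptor signalling, numbered 93 and 77 and had 2066 and 2189 CPM of Xcl1, against 393 and 709 CPM in cells without one. By subset, however, Egr2 had overlapping intervals where Xcl1 was high and where it was lower, at 9.18 and 8.28 CPM in the Cxcl10 Batf3 subset and 9.73 and 8.74 CPM in the Havcr2 Entpd1 subset. For Tnfrsf9 the levels were 850.2 and 1363 CPM with a UMI and 217 and 257 CPM without. For Cd160, a receptor shared by NK and CD8 T cells, they were 1064 and 1603 CPM against 286 and 376 CPM. Genes known from exhausted T cells did not run one way. Entpd1 had 292 and 285 CPM in cells with a UMI and 594 and 1018 CPM in cells without. Havcr2 had a smaller gap of the same sign, with 401 and 680 CPM against 524 and 846 CPM. Pdcd1 (PD-1) ran the other way, with 668 and 1017 CPM in cells with a UMI and 342 and 588 CPM in cells without. Cells with a UMI of Egr2 were also deeper (medians of 7697 and 8001 UMIs against 5366 and 5544), and cells with Entpd1, in which Xcl1 was lower, were deeper too (9000 and 8103 against 5116 and 5354).

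Of 8 measured products that activated lymphocytes release with XCL1, 1 passed the fold used here together with it in CD8 T-like cells. In CD8 T-like cells Xcl1 was past a 1.5-fold difference (on CPM with 1 added), though not as a mean over cells (0.58) or with doublets kept (0.51), as were 2.34% of the 11280 measured genes in the upward and 1.77% in the downward direction. Among these 8 of 9 listed mediators, 1 was higher by that fold and 0 lower, with a median log2 ratio of -0.09 against 0.03 over all measured genes. The one was Il2, the T-cell growth factor, at 28 and 44 UMIs and a log2 ratio of 0.67 (0.23 to 1.68), which also had the lowest level. Ccl4, at 489 and 341 CPM, was the most negative at -0.52 (-0.57 to -0.46). Ccl5, the most abundant, had a log2 ratio of -0.22 (-0.23 to -0.20), and Ifng, named after its value was seen, of -0.42 (-0.51 to -0.34). Over the whole class Ccl4, Ccl5 and Ifng thus had ratios of the other sign than Xcl1. For Ccl4 this did not hold in each subset. It stood at 1068 and 499 CPM in the Havcr2 Entpd1 subset and at 478 and 224 CPM in the Il7r subset. In the Rrm2 Ube2c subset it stood at 535 CPM (512 to 559) and 638 CPM (607 to 670), in the Tbc1d4 subset at 195 and 213 CPM, and in the Cxcl10 Batf3 subset at 186 and 199.9 CPM.

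The regulators of lymphoid state followed. In CD8 T-like cells, of 16 measured genes among 18 listed, 0 passed the fold in either direction and the median log2 ratio was 0.01. Zeb2, a factor of terminal effector cells, had the most positive ratio at 0.44 (0.31 to 0.58), at 58.3 and 79.3 CPM. Id3, a factor of memory precursors, had the most negative at -0.33 (-0.68 to -0.04). Tox, which maintains exhausted T cells, had the highest level at 438 and 505 CPM, and Egr2 the lowest at 7.65 and 6.74 CPM.

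In CD4 T-like cells Xcl1 passed the fold together with 2.15% of 11089 measured genes (2.48% lower). It did not with doublets kept (0.40) or with each library clustered on its own (0.58). Of 8 measured mediators there, 2 were higher by that fold and 0 lower, with a median log2 ratio of 0.17. In NK-like cells Xcl1 did not pass it (7.55% of 4250 measured genes were higher and 7.79% lower), nor did any of the 4 measured mediators. Ccl5 had the highest level and the most positive ratio there at 0.28 (0.22 to 0.34), and Ccl3, a chemokine of the same family, the most negative at -0.37 (-0.69 to -0.05), at 383 and 296 CPM. Of 13 measured regulators 3 were lower, namely Nr4a1 at -0.99 (-1.57 to -0.44), Nr4a3 at -0.65 (-1.29 to -0.05) and Prdm1 at -0.86 (-2.02 to 0.17). Nr4a1 and Nr4a3 encode nuclear receptors induced by antigen receptor signals, and Prdm1 encodes BLIMP-1. In Klra Cd3e cells (6.35% of 6786 genes higher, 4.61% lower), 3 of 6 measured mediators were lower, with Ccl3 at -1.05 (-1.60 to -0.55), Ifng at -0.73 (-0.99 to -0.48) and Ccl4 at -0.71 (-0.88 to -0.55), beside -0.14 for Xcl1.

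Xcr1 was concentrated in the cDC1-like cells. These were 37 and 89 cells (0.345% and 0.955% of kept cells), with all 10 listed cDC1 markers detected in both libraries, Clec9a, a receptor for dead cells, and Batf3, a factor cDC1 need, among them. Xcr1 was left out of the genes used for clustering and of the marker lists. It is a known marker of cDC1, so its place in them is a description. It stood at 274 CPM (232 to 322, 149 UMIs) in WT NOD and 296 CPM (271 to 323, 498 UMIs) in the other library. The intervals overlapped, and the log2 ratio was 0.11 (-0.15 to 0.39), so a difference of either sign was not detectable at this depth. With each library clustered on its own it was -0.25. At least 1 Xcr1 UMI was seen in 73.0% (55.9% to 86.2%) and 78.7% (68.7% to 86.6%) of cells, and in 40.6% and 38.8% after thinning to 2000 UMIs.

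Xcr1 was spread over cDC1-like cells rather than held by a few. The median cell stood at 245 and 248 CPM, the most in 1 cell was 13 and 25 UMIs, and without the highest cell the class stood at 269.7 and 286 CPM. The cDC1-like cells fell into 2 clusters, 1 with 26 and 44 cells at 259.8 and 281 CPM and 1, led also by Mctp1 and Cadm1, with 11 and 45 cells at 301 and 307 CPM. The clusters had similar Xcr1 levels although their sizes differed between the libraries.

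Other dendritic classes were at least 10 times lower. cDC2-like cells stood at 5.93 CPM (2.18 to 12.9) and 8.95 CPM (5.22 to 14.3). Migratory DC-like cells, which carry genes of dendritic cells moving to lymph nodes, stood at 4.55 CPM (0.551 to 16.4, 2 UMIs) and 18.1 CPM (12.1 to 26.1, 29 UMIs), past the 1.5-fold difference with 18.8% of their 6592 measured genes (6.78% lower). Plasmacytoid DC-like cells had 0 UMIs in WT NOD, which allows up to 7.07 CPM (3 counts), and 11.9 CPM in the other library, where 2 cells held the 10 UMIs. A cluster of dendritic cells led by Ifitm1 stood at 2.28 and 6.71 CPM.

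Lymphocytes gave the background for Xcr1. B-like cells had 1 UMI in each library (0.115 and 0.0907 CPM), CD8 T-like cells 6 and 0 UMIs, and NK-like cells 0 and 1. Plasma cell-like barcodes had 0 UMIs in WT NOD (up to 1.52 CPM) and 76 UMIs (16.03 CPM, 12.6 to 20.1) in the other library, where their median depth was 20943 UMIs and 3 cells held 38 of the UMIs. The part of other cells' RNA there was not tested.

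**Figure D4:**
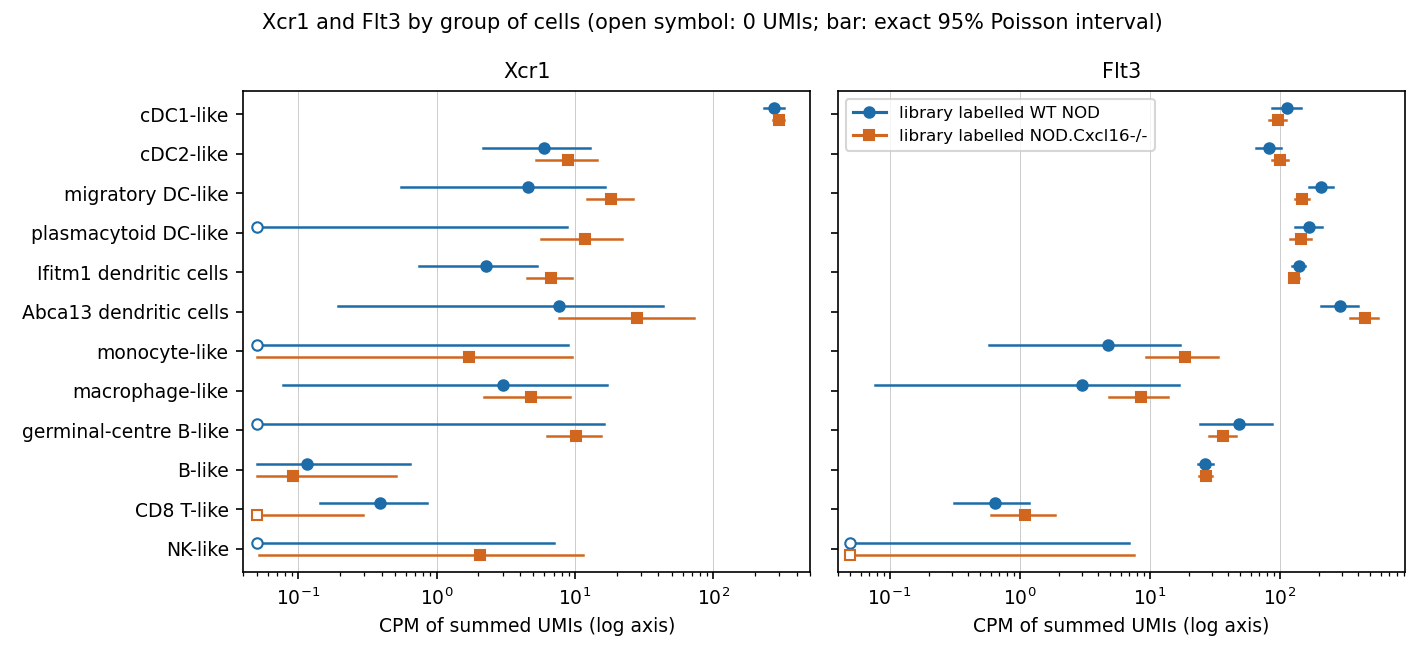
Xcr1 and Flt3 levels by group of cells, in CPM on a log axis, with 1 point per library and exact Poisson 95% intervals. Xcr1 stands near 280 CPM in cDC1-like cells and below 30 CPM in the other dendritic groups, whereas Flt3 lies between 83.0 and 450.4 CPM in all 6 dendritic groups.

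The cDC1-like cells held 68.0% (61.4% to 74.2%) of the 219 Xcr1 UMIs in WT NOD and 45.8% (42.8% to 48.8%) of the 1088 in the other library. Over all kept cells Xcr1 stood at 3.87 CPM (3.38 to 4.42) and 14.4 CPM (13.5 to 15.2). The log2 ratio was 1.66, while the level within cDC1-like cells had the ratio of 0.11. The share of cDC1-like cells was 0.345% and 0.955%, and the barcodes of mixed lineages added 17 and 371 Xcr1 UMIs (7.76% and 34.1% of the gene's total). Without those mixed barcodes, the cDC1 share in the library labelled NOD.Cxcl16-/- was 69.5%.

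Among the mixed barcodes, 1 cluster led by Bcl2l14, Ccl22 and Il12b, genes of mature dendritic cells, carried Xcr1 at 123 CPM in 13 WT NOD barcodes and 143 CPM in 53 of the other library. The same barcodes carried Xcl1 at 123 and 241 CPM, and Cd3e was seen in 53.8% and 83.0% of them, at median depths of 2919 and 23512 UMIs. A macrophage cluster led by Ccl12 and C1qa held another 138 Xcr1 UMIs in 166 barcodes of the library labelled NOD.Cxcl16-/- (36.8 CPM) and 1 UMI in 17 barcodes of WT NOD. Over all kept barcodes, 13 of 83 with Xcr1 in WT NOD and 36 of 232 in the other library also had an Xcl1 UMI (15.7% and 15.5%), at median depths of 9921 and 30760 UMIs. These depths were above the library medians, but the cDC1-like clusters also had median depths of 16050 and 20171.5 UMIs over both libraries. Among WT NOD CD8 T-like cells, 4 barcodes with both had a median depth of 7336.5 UMIs. How many of the barcodes with ligand and receptor hold more than 1 cell was not tested.

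The listed cDC1 genes were read by role beside Xcr1. The background was wide and uneven in this small class. Of 6608 measured genes, 22.3% were higher by 1.5-fold in the library labelled NOD.Cxcl16-/- and 4.18% lower, with a median log2 ratio of 0.14. The cDC1-like cells held 0.962% of the UMIs of WT NOD and 2.22% of those of the other library. Genes of low level could thus be measured more easily through the latter, and the part of this in the uneven shares was not tested. Of the 16 genes of the cDC1 programme, all measured, 0 were higher and 1 was lower, with a median of -0.13. The one was Snx22, at 88.3 and 53.5 CPM and -0.71 (-1.24 to -0.19). Cadm1, an adhesion molecule, had the most positive ratio at 0.42 (0.11 to 0.74). Irf8, the factor that specifies cDC1, had the highest level at 1244 and 1063 CPM, and Itgae (CD103) the lowest in the other library, at 37.5 CPM against 46.0 CPM in WT NOD.

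Among products by which cDC1 act on T cells, 5 of 9 measured genes (12 listed) were higher and 0 lower, with a median log2 ratio of 0.77. Over all measured genes in these cells, 22.3% were higher and 4.18% lower. Genes with few UMIs in WT NOD could enter this count only through the other library. Ccl22, a chemokine for CCR4, had 6 and 75 UMIs and a ratio of 1.92 (0.83 to 3.51). Il12b, which encodes the p40 subunit of IL-12, and Cd80, a costimulatory ligand, both had 1.40 (0.74 to 2.20 and 0.76 to 2.15). Cd274 (PD-L1) had 0.98 (0.59 to 1.41), and Il15 had 0.77 with an interval that spans 0 (-0.37 to 2.22). Cxcl9, which attracts CXCR3-bearing T cells, had the highest level, at 1985 and 2140 CPM, and a ratio of 0.11 (0.01 to 0.21). In plasmacytoid DC-like cells 6 of 7 measured genes of this list were higher and 0 lower (15.7% and 8.75% of all measured genes). In a small dendritic group led by Abca13, 0 of 6 were higher and 4 lower (15.3% and 14.1%). Migratory DC-like cells had 2 of 10 higher (18.8%), cDC2-like cells 2 of 9 (10.5%) and Ifitm1 dendritic cells 1 of 8 (6.63%). The last also had 1 lower (4.04%).

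Of 6 measured chemokine receptors among 9 listed, 1 was higher by the fold and 1 lower, with a median log2 ratio of -0.0048, beside the 22.3% and 4.18% of all measured genes given above. Ccr7, which guides dendritic cells to lymph nodes, was higher at 1.89 (1.19 to 2.76), from 29.4 to 112 CPM, and Cxcr4 lower at -1.25 (-2.13 to -0.44), from 42.3 to 17.3 CPM, while the other 4 did not pass the fold, nor did Xcr1. Ccr7 had 16 and 188 UMIs and so was measured only through the library labelled NOD.Cxcl16-/-. Ccr2, a receptor of inflammatory recruitment, had the highest level at 131 and 143 CPM. The summed level of 10 migratory DC markers, which include Ccr7 and Ccl22, was 396 and 663 CPM in these cells. That of 6 B markers was 5.52 and 151 CPM, with 4 and 0 of them at 0. Their part in these results was not tested.

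**Figure D5:**
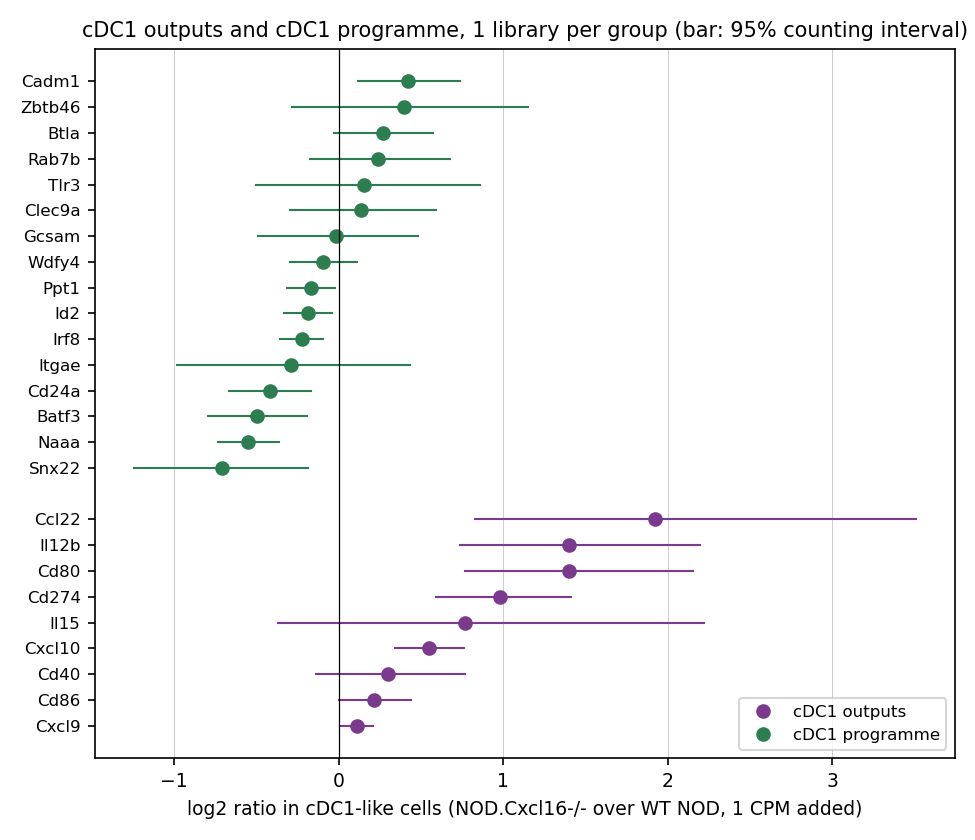
Log2 ratio of the library labelled NOD.Cxcl16-/- over WT NOD in cDC1-like cells for each measured gene of the cDC1 outputs and the cDC1 programme, with 95% intervals from counting error. The 16 programme genes have a median of -0.13 and the output genes a median of 0.77. Ccl22 is measured only through the library labelled NOD.Cxcl16-/-.

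Flt3, the reference, was carried by every dendritic group. The highest level was in a small dendritic group led by Abca13, at 292 CPM (207 to 401) in 39 WT NOD cells and 450.4 CPM (347 to 575) in 43 cells of the other library, where the median depth was only 2805 and 2782 UMIs. Migratory DC-like cells stood at 209.5 CPM (169 to 257) and 149.5 CPM (131 to 170), plasmacytoid DC-like cells at 167 CPM (131 to 211) and 146 CPM (121 to 174), and Ifitm1 dendritic cells at 141 CPM (125 to 157) and 129 CPM (119 to 140). cDC1-like cells followed at 114 CPM (87.5 to 146, 62 UMIs) and 97.0 CPM (82.6 to 113, 163 UMIs), and cDC2-like cells at 83.0 CPM (66.2 to 103) and 101 CPM (87.3 to 117). In WT NOD all neighbours in this order overlapped in their intervals. In the other library the Abca13 group stood clear above the rest and the Ifitm1 dendritic cells above both cDC classes, while the remaining neighbours overlapped. Flt3 was thus higher in 4 dendritic groups than in the cDC1-like cells in both libraries, by their point values, and these 4 had at most 28.1 CPM of Xcr1.

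Between the libraries, the log2 ratio of Flt3 was -0.23 (-0.66 to 0.21) in cDC1-like cells, -0.20 in plasmacytoid DC-like cells, -0.12 in Ifitm1 dendritic cells and 0.28 in cDC2-like cells, none past 1.5-fold. With cells thinned to 2000 UMIs the cDC1-like ratio was -0.68, past the fold, and with doublets kept the cDC2-like ratio was -0.57. The background of genes higher and lower was 15.7% and 8.75% in plasmacytoid DC-like cells, 6.63% and 4.04% in Ifitm1 dendritic cells and 10.5% and 6.14% in cDC2-like cells. The Abca13 group was past the fold at 0.62 (0.02 to 1.24), as were 15.3% of its 1665 measured genes (14.1% lower). In migratory DC-like cells the ratio was -0.48, but its sign turned with doublets kept (0.082), with cells of at least 1000 UMIs (0.38) and with separate clustering of the libraries (1.77). The difference lay in 1 of their 2 clusters. The cluster led by Dpp10 and Mdk had 295 CPM (216 to 394) in 16 WT NOD cells and 119 CPM (93.9 to 149) in 53 cells of the other library, and the cluster led by Fscn1 had 162 CPM (119 to 217) and 169.7 CPM (145 to 198).

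Outside dendritic cells Flt3 was found in B cells. B-like cells stood at 26.8 CPM (23.5 to 30.5) and 27.0 CPM (24.1 to 30.3), with a UMI in 11.5% and 12.2% of cells, and germinal-centre B-like cells at 48.6 CPM (24.3 to 87.0) and 36.6 CPM (28.9 to 45.9). For background, CD8 T-like cells stood at 0.648 and 1.11 CPM, and NK-like cells had 0 UMIs in both libraries, which allows up to 5.68 and 6.13 CPM. B-like cells therefore carried Flt3 above the level of T cells, which were as deep. By their number they held 19.7% and 12.2% of all Flt3 UMIs, more than the 5.23% and 6.69% of the cDC1-like cells, and the Ifitm1 dendritic cells held 26.0% and 23.7%.

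Beside Flt3, other growth factor receptors were within 1.5-fold in cDC1-like cells. Of 3 measured among 10 listed, Kit, the stem cell factor receptor, had the highest WT NOD level (131 and 105 CPM) and the most negative ratio, -0.31 (-0.72 to 0.11). Csf2rb, the common beta chain of the GM-CSF receptor, had the lowest WT NOD level (82.8 and 106 CPM) and the most positive ratio, 0.36 (-0.12 to 0.87). Of 15 measured genes among 16 of FLT3 signalling and dendritic lineage factors, 1 was higher and 0 lower, beside 22.3% and 4.18% of all measured genes. The list had a median of 0.17 against 0.14 over all measured genes. The gene past the fold was Stat5b, a factor activated by cytokine receptors, at 4 and 39 UMIs and 1.53 (0.19 to 3.60). It was measured only through the library labelled NOD.Cxcl16-/-. The most negative was Batf3 at -0.50 (-0.79 to -0.20).

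Genes were also ranked by how closely their level followed each member over 22 points, 1 per named class and library with at least 50 cells. The points share libraries and depth, and the classes were formed from the same cells, so the correlations are descriptions. The members themselves were left out of that clustering. Closest to Xcl1 were Cd160 (Pearson r = 0.916), Samd3 (0.909), Prf1 (perforin, 0.908), Gm33460 (0.903), Fasl (0.901), Ifngas1 (0.901), Eomes (0.897), Ifitm10 (0.887), Klre1 (0.874) and Car5b (0.871). Among the 10 closest to Xcr1 were 5730522E02Rik (0.942), Fam149a (0.942), Gpr141b (0.933), Met (0.907), Sept3 (0.899), Clec9a (0.894), Gm38410 (0.888), Ffar4 (0.885) and Rala (0.884). The WT NOD cDC1-like cells, 37 in number, gave no point, so these values rest on 1 cDC1 point. With classes of at least 30 cells (29 points, a choice made after the data were seen) Snx22 (0.879) and Gcsam (0.867), both of the listed cDC1 programme, entered the 10 closest to Xcr1. Closest to Flt3 were Rnase6 (0.969), Kmo (0.941), Themis2 (0.940), Napsa (0.937), Ifi30 (0.929), Ctsh (0.925), Tnni2 (0.923), 5031439G07Rik (0.918), Kynu (0.917) and Wdfy4 (0.917).

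Over the CD8 subsets (12 points) a different set followed Xcl1. Among the 10 closest were Lrrk2 (0.948), Ccdc50 (0.947), Stx11 (0.946), Cstb (0.945), Mir155hg (0.944), Scd2 (0.937), Il21 (0.933), Fam162a (0.932) and Xrcc5 (0.930), each with its highest level in the Cxcl10 Batf3 subset or the Tbc1d4 subset. That place follows from the ranking, because Xcl1 itself was highest in these subsets. Mir155hg is the host transcript of miR-155, and Il21 encodes a cytokine that sustains CD8 T cells. None of these named genes was among the 10 closest to Xcl1 over the classes, which included Prf1, Fasl and Eomes, genes of cytotoxic lymphocytes.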

How the data were processed

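Deposited counts were used, which are UMI counts per gene and barcode that the authors obtained with Cell Ranger 7.0.1 on mm10, per the submitters' processing notes. Gene coordinates are from GENCODE for GRCm38, which holds 32235 of the 32285 gene IDs. The number of animals per library and the intron setting are not given in the sources used here.

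Barcodes with under 500 genes (1582 in WT NOD and 311 in the library labelled NOD.Cxcl16-/-) or over 10% mitochondrial UMIs (25 and 29) were left out, and then the 1537 and 891 with the highest doublet scores against simulated doublets (0.8% per 1000 barcodes). The remaining cells were clustered jointly with Leiden at resolution 1 on 50 principal components of 2000 variable genes (Python 3.11.15, numpy 2.4.6, scipy 1.17.1, scikit-learn 1.9.0, leidenalg 0.10.2), which gave 27 clusters and, after division of mixed ones, 47. Clusters were named X-like from marker lists, and the 3 genes were left out of these lists and of the genes used for clustering. The genes and lists were chosen with earlier results of these data known, and the naming thresholds were set after clusterings had been seen with the cells per library and the 3 genes' levels in view.

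UMIs were summed per class and library and scaled to CPM of the class total, with exact Poisson 95% intervals. Shares have exact Clopper-Pearson intervals. Log2 ratios set the NOD.Cxcl16-/- library over the WT NOD one with 1 CPM added, and a gene counted as measured with at least 20 UMIs in either library. In a class with more UMIs in 1 library, genes of low level are measured more easily through that library. With 1 library per group no test was made. For thinning, each cell was reduced to 2000 UMIs and shallower cells were left out (113 and 68 CD8 T-like, 8 and 6 NK-like, 94 and 67 B-like, 5 and 9 cDC1-like). A count of 0 is given with the limit that 3 counts set. Of each list, the genes named are those with the highest and lowest level and the largest ratio in each direction, plus all members past the fold where these were 5 or fewer. For likeness they are the 10 genes with the highest r among those with at least 100 UMIs. A few genes that these rules name are not reported here. CD8 genes beside Xcl1, the single markers and other genes outside the rule were chosen after values had been seen. The procedure was tested on simulated data, where unchanged genes passed the fold more often in the small NK-like and cDC1-like classes than in CD8 T-like cells, so list counts there are less certain. Alternatives changed the doublet removal, cell filters, clustering, scaling, cell weights, depth and pseudocount.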

Additional observations from a re-analysis of the deposited data

Results flagged for a closer look

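The Xcl1 difference between the libraries had a different direction in different groups of cells, and with 1 library per genotype none of these contrasts was tested. Among groups with at least 50 cells and at least 100 Xcl1 UMIs in both libraries, the log2 ratio of the library labelled NOD.Cxcl16-/- over WT NOD was positive in CD4 T-like cells (0.83), CD8 T-like cells (0.71) and NK-like cells (0.37). It was negative in Klra Cd3e cells (-0.14), barcodes of mixed lineages (-0.42), plasma cell-like barcodes (-0.84) and low-UMI barcodes (-1.22). Of groups with fewer Xcl1 UMIs, Il21 Il10 cells had -1.17 (-2.15 to -0.39), Ifitm1 dendritic cells 0.83 (0.17 to 1.69) and B-like cells 0.61 (0.13 to 1.34). With at most 5 WT NOD UMIs each, plasmacytoid DC-like cells had 2.48 (0.71 to 5.83), migratory DC-like cells 1.62 (0.10 to 4.10) and cDC2-like cells 1.31 (0.07 to 3.21). There the highest cell of the other library held 11 of 26, 16 of 37 and 13 of 26 UMIs. In WT NOD and the other library, the highest cell held 8 of 20 and 35 of 76 UMIs in Ifitm1 dendritic cells. In B-like cells it held 9 of 36 and 26 of 75, and in Il21 Il10 cells 12 of 49 and 4 of 16. These intervals cover counting error only, so they do not include this unevenness between cells. The low-UMI barcodes were 2888 cells in WT NOD and 412 in the other library, and the plasma cell-like barcodes had median depths of 3884 and 20943 UMIs.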

How the results depend on the processing

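The Xcl1 ratio in CD8 T-like cells (0.71) was positive under all 9 alternatives, at 0.58 as a mean over cells, 0.59 with thinned cells, 0.51 with doublets kept and 0.83 with each library clustered on its own, which lie on both sides of a 1.5-fold difference. In CD4 T-like cells (0.83) it was also positive under all 9, at 0.40 with doublets kept, 0.58 with separate clustering and up to 1.08 with thinned cells. In NK-like cells (0.37) it was 0.014 with Klra Cd3e cells counted in, a choice made after seeing the data, and within 0.32 to 0.44 otherwise. With doublets kept, at least 1000 UMIs or separate clustering no NK-like class formed, so no value was had. The Xcr1 ratio in cDC1-like cells (0.11) was -0.25 with separate clustering, and the Flt3 ratio there (-0.23) was -0.68 with thinned cells. The Flt3 ratio in migratory DC-like cells (-0.48) turned to 0.082 with doublets kept, 0.38 at 1000 UMIs or more and 1.77 with separate clustering. The CD8 share of Xcl1 in WT NOD (51.4%) was 60.3% without low-UMI clusters, 47.1% with doublets and 55.9% with separate clustering. In the other library (58.3%) it was 46.5% with doublets, 59.4% at 1000 UMIs or more, 59.8% at resolution 2 and 60.2% with separate clustering. The cDC1 share of Xcr1 in WT NOD (68.0%) was 76.4% without low-UMI clusters and 47.7% with doublets. In the other library (45.8%) it was 69.5% without mixed barcodes (chosen after seeing the data), 35.8% with doublets, 42.5% at 200 genes or more and 63.0% with separate clustering. The cause was not tested. NK-like cells were the highest named class for Xcl1 in both libraries in 7 of 7 settings with such a class, and cDC1-like cells for Xcr1 in 10 of 10. Both counts include the changed pseudocount, which does not enter these levels and so could not alter the order. The 10 also include the setting with Klra Cd3e cells counted in, which left the cDC1-like cells as they were. No paired analysis was possible because each genotype has 1 library and the labels carry no replicate numbers. Counts limit the dendritic groups: in WT NOD the cDC1-like cells had 149 Xcr1 and 62 Flt3 UMIs, the Abca13 dendritic cells 1 and 38, and the migratory DC-like cells 2 Xcr1 UMIs.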
